A study of Mus musculus with 30 samples.

Results

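The comparison is of 4T1-tdTomato cells that grew as macro-metastases in the lungs of BALB/c mice with the same cells that grew as mammary tumours in BALB/c mice. Libraries were taken by their labels alone, with no use of measured values, and the comparison holds 10 of the 30 libraries of the series. The 5 BALB/c macro-met libraries (labelled as endpoint, 4 from day 21 and 1 from day 23) came from lungs of female BALB/c mice given 500000 cells by the tail vein. The 5 BALB/c tumour libraries (2 from day 21 and 3 from day 22) came from tumours of female BALB/c mice given 200000 cells in the mammary fat pad. All cells were of the 4T1 line, a mammary carcinoma line that arose in a BALB/c mouse, and carried the red fluorescent protein tdTomato. After collagenase digestion, both tissues were sorted for DAPI-, CD45- and tdTomato+ single cells, and RNA was sequenced in bulk. As macro-mets started from cells in the blood, route, organ and cell number changed together and cannot be told apart. Libraries of NSG mice, which lack T, B and NK cells, are used where a change in BALB/c hosts is set beside that in NSG hosts (5 macro-met libraries from days 19 and 20, 5 tumour libraries from day 10, with the same routes and cell numbers). Stage and day of tumours differ between the hosts, and the titles of libraries share numbers within a group, with letter codes whose meaning the labels do not give. Whether libraries came from separate animals is therefore not known, and p-values measure the spread between these libraries, which may be technical.

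Cells that seed an organ through the blood meet a new stroma, a new supply of oxygen and nutrients and a new set of host cells. Carcinoma cells in such sites are known to switch between growth states, to use matrix-sensing factors such as YAP with TEAD, to answer interferon from T cells and NK cells, and to answer glucocorticoid, the adrenal hormone in the series title. Lung holds a high tension of oxygen and much of the body's vascular surface, whereas the mammary fat pad is fat and connective tissue.

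Total counts ran from 33649294 to 61780104 in macro-met libraries and from 34070188 to 65621525 in tumour libraries, and 17774 genes were tested. The epithelial carcinoma markers (Krt8, Krt18, Epcam, Cdh1 and others, 12 genes) summed to 5363.4 to 8159.3 CPM (counts relative to the TMM-scaled library total) in macro-mets and 7361 to 8270.4 CPM in tumours. Both groups held the markers of the labelled line, but 6 of the 12 were called lower in macro-mets and 0 higher. Means in macro-mets and tumours were 236.5 and 455.6 CPM for Epcam and 2726.7 and 2683.8 CPM for Krt8. Macro-met replicates 3, 4 and 5, at sums of 6281.5, 5363.4 and 5908 CPM, lay below every tumour. The leukocyte gene Ptprc, which encodes CD45, stood at 0.137 to 1.04 CPM in macro-mets and at 0.418 to 6.62 CPM in tumours. Of 15 lung epithelial markers tested, 10 were called higher in macro-mets and none lower (5 and 0 on log2(TPM + 1), 1 and 1 within day 21). The sum of all 17 counted ran from 40.5 to 110.0 CPM against 23.1 to 73.4 CPM in tumours. Its most abundant members were Lyz2, also a macrophage marker, and Foxj1, at means of 19.4 and 19 CPM in macro-mets and 16.9 and 27.4 CPM in tumours. Sftpa1, Scgb3a2, Nkx2-1, Lamp3 and Bpifa1 had no counts in tumours, and means of 0.0803 to 2.42 CPM in macro-mets. Sftpc, the surfactant protein of alveolar type II cells, ranged from 0.65 to 40.7 CPM in macro-mets and from 0 to 1.74 CPM in tumours. Endothelial markers summed to 196 to 264 CPM in macro-mets and 150.4 to 191 CPM in tumours, nearly all of it Eng, and red cell and platelet markers to 10.5 to 51.3 CPM against 3.11 to 8.33 CPM. In bulk RNA, fewer cells of a type and less RNA per cell cannot be told apart, and the part of such RNA in the results below was not tested.

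One library stood apart. BALB/c tumour replicate 4 had a score of 173 on the first principal component of the 10 libraries, against 13.3 to 40.3 for the other tumours and -69.7 to -47.1 for the macro-mets, and its correlations with other tumours reached down to 0.892. Skeletal muscle markers summed to 1069 CPM in it, against 66.1 to 83.8 CPM in the other tumours and 23.0 to 44.0 CPM in macro-mets. It also had the highest fibroblast, macrophage and B cell sums of the tumours. It had counts above 0 for 17517 genes, against 20151 to 21818 genes in the other tumours. Without it, the calls fell to 3323 higher and 2732 lower. Of 3483 genes called higher with all libraries, 3046 stayed called higher, and of 3243 called lower, 2385 stayed called lower. Results that rest on tumour replicate 4 are given below with and without it.

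**Figure D1:**
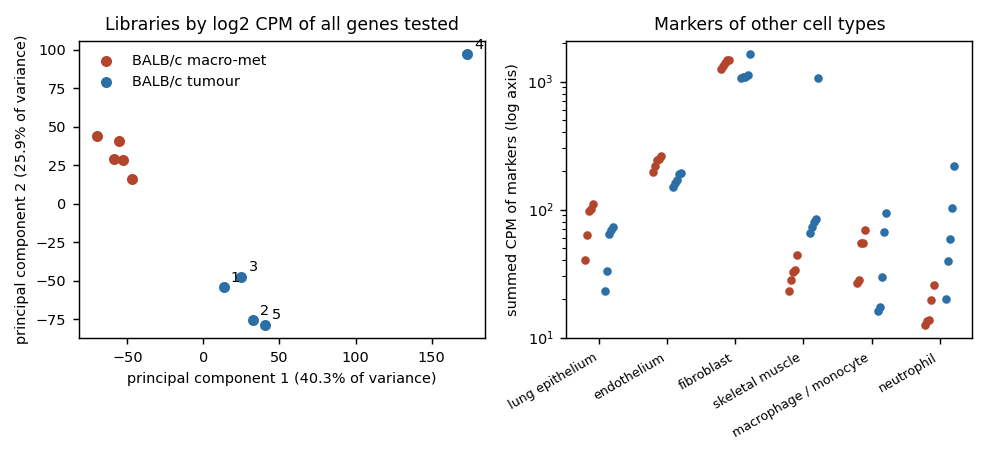
Left, the first and second principal components of log2 CPM over the 10 libraries (5 BALB/c macro-mets, 5 BALB/c tumours with replicate numbers). Right, summed CPM of markers of other cell types on a log axis, 1 point per library: tumour replicate 4 lies apart at a score of 173 and holds 1069 CPM of skeletal muscle markers.

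A total of 6726 genes (37.8%) differed at an adjusted p under 0.05 in the fit of all 30 libraries, 3483 (19.6%) higher and 3243 (18.2%) lower in macro-mets. Of those, 804 were higher and 2170 lower by at least 1 on the log2 scale, a split that depends on the scale: the counts were 622 and 796 on log2(TPM + 1), 1118 and 1611 on log2(TPM + 0.1), and 634 and 1243 within day 21. Without tumour replicate 4, 1499 of the 2170 were still called lower. Groups of 5 libraries did not overlap for 2414 genes (13.6%) in the upward direction and 1717 genes (9.66%) in the downward direction. The median log2 fold change over all genes tested was -0.03. On the authors' TPM values (log2(TPM + 1), limma), 4267 genes were higher and 2451 lower, so 63.5% of calls were higher in place of 51.8%. Within day 21 (4 macro-mets, 2 tumours), 1786 were higher and 1704 lower. Values in parentheses below are log2 fold changes of macro-met over tumour from edgeR ± SE, with n = 5 per group and p-values adjusted over all 17774 genes. The SE was derived from the test, as the absolute log2 fold change divided by the square root of the F statistic.

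Sod3, Lbp and Selenbp1 were among the largest rises. Sod3, the extracellular superoxide dismutase, stood at 68.4, 133, 128, 118 and 89.7 CPM in macro-mets, against 12.8, 3.13, 9.26, 19.4 and 12.6 CPM in tumours (3.23 ± 0.32, adjusted p = 2.68e-08). Lbp, the lipopolysaccharide-binding acute phase protein, stood at 541, 743, 673, 830.0 and 791 CPM in macro-mets, against 104, 136, 54.3, 62.4 and 146 CPM in tumours (2.83 ± 0.27, adjusted p = 1.61e-08). Selenbp1, a selenium-binding methanethiol oxidase, stood at 25.0, 27.2, 20.7, 23.0 and 25.4 CPM in macro-mets, against 4.28, 3.60, 4.00, 2.19 and 2.81 CPM in tumours (2.85 ± 0.35, adjusted p = 6.08e-07). Every macro-met library lay above every tumour library for all 3 genes. The rise of Sod3, Lbp and Selenbp1 was also seen in NSG hosts (3.40 ± 0.32, 3.14 ± 0.27 and 3.53 ± 0.36), and none of the 3 differences between hosts was called.

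Further large rises were those of Tln2, Itga10, Gprc5b and Camk1d. Tln2, a talin that links integrins to actin, stood at 69.2, 92.0, 108, 108 and 86.0 CPM in macro-mets, against 18.1, 7.89, 15.5, 20.1 and 12.7 CPM in tumours (2.64 ± 0.20, adjusted p = 1.32e-10). Itga10, a collagen-binding integrin subunit, stood at 29.6, 35.7, 31.4, 26.1 and 26.8 CPM in macro-mets, against 4.89, 5.79, 5.58, 4.72 and 7.25 CPM in tumours (2.41 ± 0.16, adjusted p = 1.36e-11). Gprc5b, an orphan receptor, and Camk1d, a calcium- and calmodulin-dependent kinase, rose as well (2.40 ± 0.27 and 2.32 ± 0.21). Groups did not overlap for any of the 4. The smallest adjusted p among rises also took Jade2, a chromatin-associated PHD-finger protein (1.70 ± 0.12, adjusted p = 1.36e-11), and Pdgfa, the platelet-derived growth factor A chain, at 218, 199, 209, 173 and 179.5 CPM in macro-mets, against 86.9, 81.0, 70.4, 63.7 and 66.1 CPM in tumours (1.41 ± 0.10, adjusted p = 1.03e-10). Scarb1, the receptor for high-density lipoprotein, rose by 1.32 ± 0.11.

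**Figure D2:**
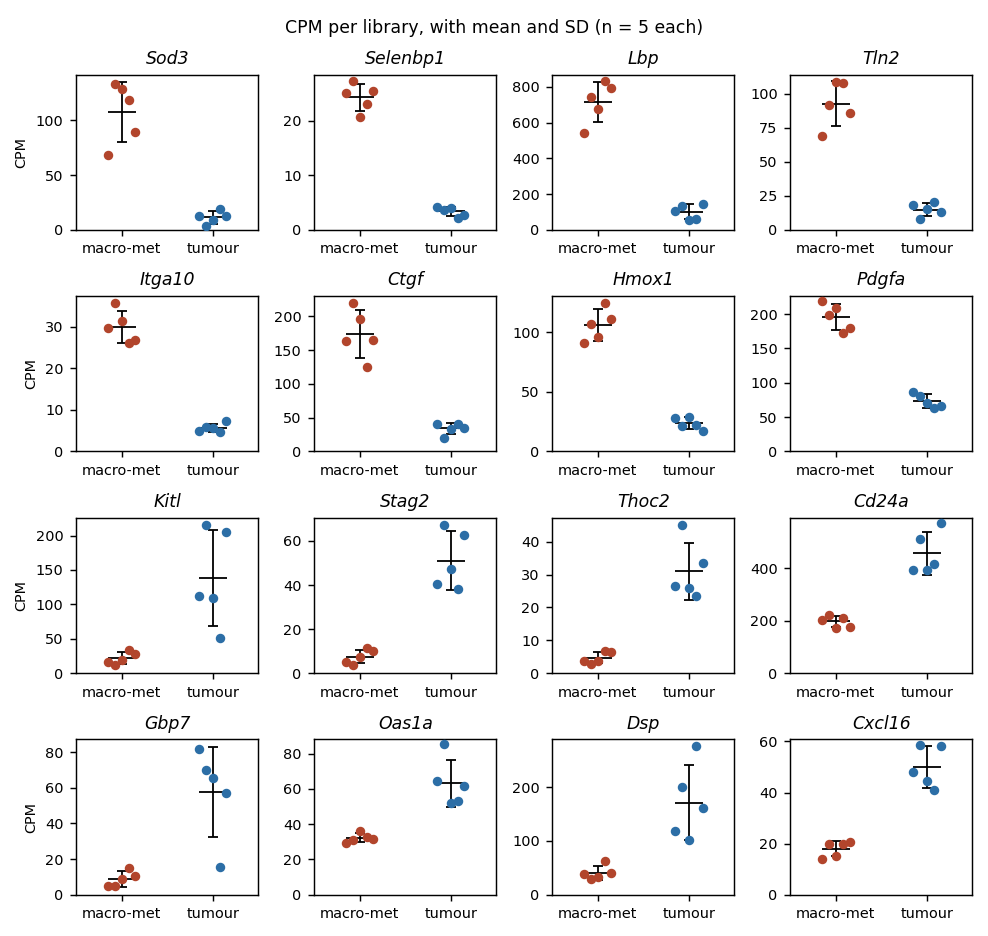
CPM of 16 genes in each library, with the mean and SD of 5 libraries in black, BALB/c macro-mets left and BALB/c tumours right in each panel. The top row and the row under it hold 8 genes that were higher in macro-mets and the lower rows 8 that were lower, and tumour replicate 4 is the lowest tumour for Kitl and Gbp7.

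The largest falls included Stag2, Thoc2, Prpf39 and Malat1. Stag2, a cohesin subunit, stood at 5.16, 3.79, 7.47, 11.3 and 9.89 CPM in macro-mets, against 40.5, 67.3, 47.1, 38.0 and 62.6 CPM in tumours (-2.76 ± 0.39, adjusted p = 4.70e-06). Thoc2, a scaffold of the THO mRNA export complex, stood at 3.82, 2.92, 3.75, 6.67 and 6.33 CPM in macro-mets, against 26.5, 45.1, 26.0, 23.6 and 33.6 CPM in tumours (-2.72 ± 0.43, adjusted p = 2.42e-05). Prpf39, a splicing factor, Arid4b, a chromatin adaptor, Jmjd1c, a Jumonji family protein, Zfp638, a zinc finger protein, and Washc4, a subunit of the WASH complex on endosomes, fell by 2.96 ± 0.41, 2.60 ± 0.43, 2.56 ± 0.40, 2.56 ± 0.47 and 2.62 ± 0.39. Ogt, the O-GlcNAc transferase, and the transcription factor gene Creb1 fell by 2.03 ± 0.25 and 1.69 ± 0.21. Among non-coding RNAs, Malat1 stood at 97.9, 33.2, 50.1, 104 and 52.6 CPM in macro-mets, against 322, 370.2, 384, 789 and 766 CPM in tumours (-2.96 ± 0.49, adjusted p = 4.57e-05), Neat1, the scaffold of paraspeckles, fell by 1.78 ± 0.25, and 13 of 14 non-coding RNAs tested were lower. Without tumour replicate 4 that count was 8 of 14, and within day 21 it was 5. Rn7sk, the RNA that holds the elongation factor P-TEFb, was 4898 CPM in tumour replicate 4, against 201 to 279.8 CPM in the other tumours and 51.0 to 98.2 CPM in macro-mets, so its change of -3.87 ± 1.10 became -1.56 without that library and was no longer called.

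These falls went with base composition. GC content of exons was taken over the longest transcript of each gene. Its median was 44.6% in genes called lower and 52.2% in genes called higher, against 49.7% over all tested. Across 17717 genes the log2 fold change had a rank correlation with GC content of 0.33 and with exonic length of 0.02, a description over genes of 10 libraries. Exons of Thoc2, Prpf39 and Stag2 were 37.5%, 37.6% and 38.1% GC. With offsets for GC content and length, Thoc2, Prpf39 and Stag2 changed by -1.64, -1.93 and -1.93 and all 3 were still called. Creb1 changed by -0.76 in that fit, Ogt by -1.65 and Malat1 by -2.57. Of falls given below, Tslp, mt-Nd4 and mt-Co1 changed by -0.62, -0.74 and -0.44 in it, and were still called. The part of GC content in these falls was not tested beyond that fit.

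**Figure D3:**
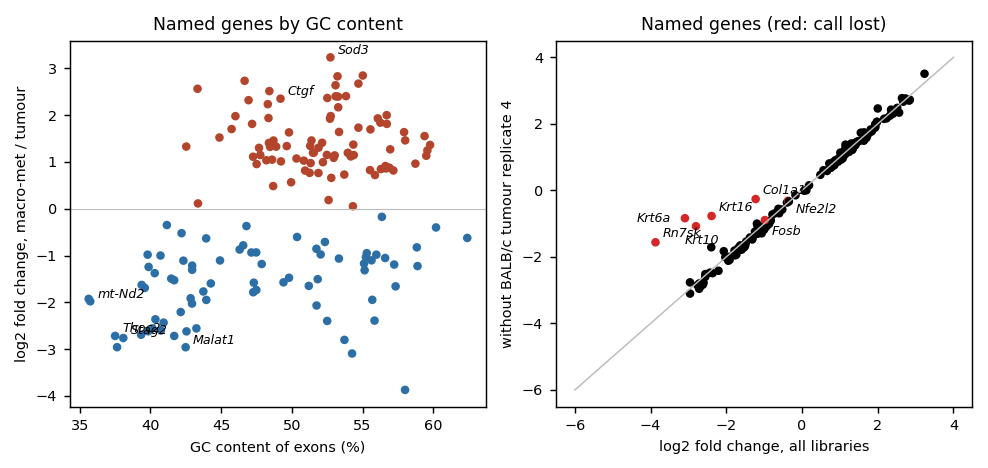
Left, the log2 fold change of the 161 genes chosen for the text against the GC content of their exons (red, higher in macro-mets, blue, lower). Right, the same changes without tumour replicate 4 against those with all libraries. Genes in red lost their call, Rn7sk, Krt6a, Krt10 and Krt16 the farthest from the diagonal.

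Growth genes were higher in macro-mets. The list of DNA replication held 40 tested genes, of which 36 were called higher and 1 lower. Its median was 0.87, against -0.03 over all genes, and the groups did not overlap for 35 members. Rrm2, the small subunit of ribonucleotide reductase, stood at 106, 89.0, 116, 148 and 134 CPM in macro-mets, against 38.8, 26.6, 35.7, 36.9 and 12.5 CPM in tumours (1.98 ± 0.20, adjusted p = 2.86e-08). Mcm6, a subunit of the replicative helicase, stood at 446, 351, 353, 338 and 355 CPM in macro-mets, against 194, 135, 196, 204 and 123 CPM in tumours (1.11 ± 0.12, adjusted p = 3.09e-08). Every macro-met library lay above every tumour library for both genes. Mcm10, which joins the helicase at origins, the single-strand binding gene Rpa1 and the thymidine kinase gene Tk1 rose by 1.46 ± 0.14, 1.33 ± 0.13 and 1.30 ± 0.13. The 1 member that fell was Pola1, the catalytic subunit of DNA polymerase alpha, at 1.79, 2.92, 4.66, 6.46 and 5.46 CPM in macro-mets, against 14.3, 14.1, 13.9, 8.48 and 9.19 CPM in tumours (-1.49 ± 0.46, adjusted p = 0.0124), and its exons hold 41.5% GC. The count of rises was 35 without tumour replicate 4, 35 with GC and length offsets and 32 within day 21.

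The promoter of Mcm6 is shown because replication genes are known targets of E2F factors. It is the RefSeq promoter (GRCm38.p6, chr1:128359656-128359955, minus strand), from 250 bases before to 50 bases after the start, and capitals mark the E2F motif, searched as TTTGGCGC or TTTCCCGC on both strands.
Mcm6: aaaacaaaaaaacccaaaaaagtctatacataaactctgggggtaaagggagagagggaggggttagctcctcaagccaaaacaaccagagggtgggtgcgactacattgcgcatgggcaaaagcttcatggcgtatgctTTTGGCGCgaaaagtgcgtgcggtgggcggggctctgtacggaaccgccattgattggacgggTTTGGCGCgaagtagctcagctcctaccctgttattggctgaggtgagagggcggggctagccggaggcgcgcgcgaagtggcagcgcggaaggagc
The motif was in the promoters of 11 of 32 replication genes with a promoter on hand (34.4%) and of 3.12% of 12029 tested genes with one. Among the replication genes named above, Rrm2, Mcm10, Rpa1 and Tk1 held no match, whereas Pola1, which fell, held 1. A match is a stretch of letters and shows no binding.

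Of 30 mitosis genes, 20 rose and 2 fell (median 0.80). Aurkb, the kinase of the chromosomal passenger complex, stood at 66.2, 61.2, 65.8, 62.2 and 66.0 CPM in macro-mets, against 19.5, 9.33, 15.3, 12.1 and 6.15 CPM in tumours (2.37 ± 0.20, adjusted p = 1.17e-09). Its partner Incenp, the separase gene Espl1 and the kinase genes Aurka and Cdk1 rose by 1.73 ± 0.18, 1.93 ± 0.22, 1.46 ± 0.17 and 1.15 ± 0.15. Ncaph, a condensin subunit, and Fam83d, a spindle protein, rose by 1.94 ± 0.15 and 2.73 ± 0.23. The kinesin gene Kif20b and the kinetochore motor gene Cenpe fell (-1.63 ± 0.53, adjusted p = 0.0172, and -1.30 ± 0.43, adjusted p = 0.0187), but without macro-met replicate 2 neither was called (-1.42, adjusted p = 0.0512, and -1.10, adjusted p = 0.0571) and the list held 20 rises and 0 falls. Kif20b also lost its call with GC and length offsets (-0.98), and Cenpe without tumour replicate 1 (-0.99) and on log2(TPM + 1) (-0.67). Mki67, the gene of the Ki-67 antigen, and Top2a, topoisomerase II alpha, were not called, at 5.73 to 20.0 CPM in macro-mets and 9.99 to 24.3 CPM in tumours (-0.78 ± 0.39, adjusted p = 0.111) and at 36.3 to 123 CPM in macro-mets and 35.4 to 101 CPM in tumours (0.11 ± 0.33, adjusted p = 0.818). Groups overlapped for all 4 of these genes.

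Among regulators of the cell cycle, Myc stood at 188, 168, 210.5, 171 and 186 CPM in macro-mets, against 65.2, 77.0, 46.3, 38.2 and 69.2 CPM in tumours (1.64 ± 0.15, adjusted p = 7.65e-09). Ccne1, cyclin E1, which acts at entry to S phase, and Ccnd1, cyclin D1, rose by 1.92 ± 0.22 and 0.82 ± 0.14. Ccnd2, cyclin D2, fell by 0.93 ± 0.17. Over the list of 23 tested G1 cyclins, CDK inhibitors and Myc genes, 8 rose and 2 fell (43.5% called, against 37.8% of all genes tested).

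The rise of growth genes differed from that in NSG hosts. Changes from tumour to macro-met differed between BALB/c and NSG for 929 genes (5.23%), in the same fit. In that test, 28 of 40 replication genes and 21 of 30 mitosis genes were called. The median changes of the lists in NSG hosts were 0.13 and -0.34, against 0.87 and 0.80 in BALB/c. Rrm2 changed by 0.61 ± 0.19 in NSG (difference 1.37 ± 0.28, adjusted p = 0.00298), Aurkb by 0.46 ± 0.19 (difference 1.91 ± 0.27, adjusted p = 9.70e-05), Fam83d by 0.34 ± 0.21 (difference 2.40 ± 0.31, adjusted p = 2.92e-05) and Myc by 0.42 ± 0.15 (difference 1.22 ± 0.21, adjusted p = 0.000804). BALB/c tumours were 21 or 22 days old and NSG tumours 10 days old, so host and age of the tumour cannot be told apart here.

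**Figure D4:**
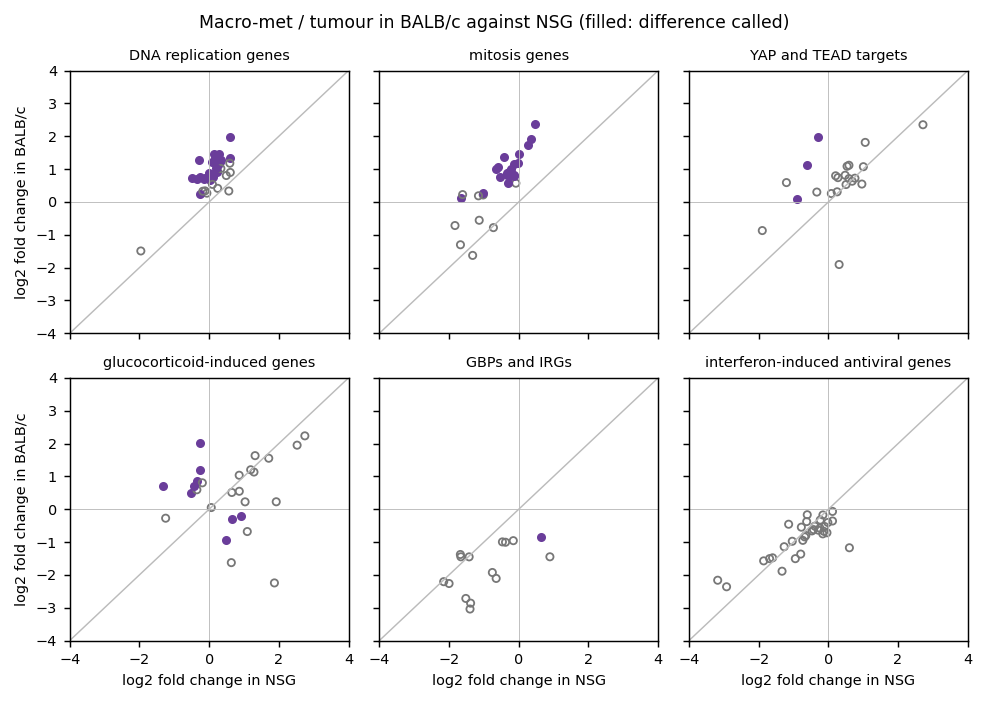
Log2 fold changes of macro-met over tumour in BALB/c (vertical axis) against NSG (horizontal axis) for members of 6 lists, 1 point per gene and 5 libraries per group. Filled points mark genes whose change differed between hosts: 28 of 40 replication and 21 of 30 mitosis genes, all above the diagonal, and 0 of 32 antiviral genes.

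Targets of YAP and TEAD, the factors that act when cells spread on stiff matrix, were mostly higher. Of 22 tested, 16 rose and 1 fell (median 0.72), and 14 did not overlap. Ctgf, the matricellular connective tissue growth factor, stood at 163, 219.7, 196, 124 and 165 CPM in macro-mets, against 40.7, 19.7, 33.6, 41.0 and 35.2 CPM in tumours (2.35 ± 0.31, adjusted p = 1.95e-06). Cyr61, a related matricellular protein, stood at 672, 654, 436, 385 and 291 CPM in macro-mets, against 131, 57.9, 116, 149.5 and 163 CPM in tumours (1.98 ± 0.23, adjusted p = 3.10e-07). Amotl2, an angiomotin that binds YAP, the kinase gene Nuak2 and Crim1, a transmembrane protein that binds BMPs, rose by 1.81 ± 0.18, 1.12 ± 0.12 and 1.07 ± 0.14. F3, tissue factor, fell by 0.87 ± 0.22. Ctgf rose in NSG hosts too (2.71 ± 0.31), whereas Cyr61 changed by -0.31 ± 0.22 there and the hosts differed (difference 2.29 ± 0.32, adjusted p = 9.70e-05). Without tumour replicate 4 the list held 14 rises, and with GC and length offsets 15.

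Promoters of 3 risen members are shown because TEAD factors are known to bind the motif searched here, which is GGAATG or its reverse complement CATTCC and printed in capitals. They are RefSeq promoters (GRCm38.p6) of the same 300 bases: Cyr61 (listed there as Ccn1) at chr3:145649936-145650235, minus strand, Amotl2 at chr9:102717554-102717853, plus strand, and Crim1 at chr17:78199998-78200297, plus strand.
Cyr61: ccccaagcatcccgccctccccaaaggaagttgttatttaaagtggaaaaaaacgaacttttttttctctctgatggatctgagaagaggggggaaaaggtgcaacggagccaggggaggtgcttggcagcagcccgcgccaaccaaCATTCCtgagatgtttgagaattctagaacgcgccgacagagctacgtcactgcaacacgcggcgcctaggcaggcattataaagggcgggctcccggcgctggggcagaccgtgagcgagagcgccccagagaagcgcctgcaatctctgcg
Amotl2: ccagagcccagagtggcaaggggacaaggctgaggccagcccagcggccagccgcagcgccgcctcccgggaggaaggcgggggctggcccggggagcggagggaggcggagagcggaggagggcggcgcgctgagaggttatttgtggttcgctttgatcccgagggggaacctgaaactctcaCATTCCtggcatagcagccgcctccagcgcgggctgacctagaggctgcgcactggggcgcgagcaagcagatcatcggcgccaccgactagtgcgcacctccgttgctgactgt
Crim1: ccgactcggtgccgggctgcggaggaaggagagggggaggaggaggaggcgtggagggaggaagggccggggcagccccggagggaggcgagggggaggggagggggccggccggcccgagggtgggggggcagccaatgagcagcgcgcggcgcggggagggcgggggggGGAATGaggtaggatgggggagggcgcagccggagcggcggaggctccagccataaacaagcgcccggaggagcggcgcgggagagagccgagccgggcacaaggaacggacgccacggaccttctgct
The motif was present in 10 of 16 members with a promoter on hand (62.5%), against 14.9% of tested genes, and its first base lies at -103, -65 and -79 from the start in Cyr61, Amotl2 and Crim1. A match is a description of the letters.

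Interferon-induced genes were lower in macro-mets. All 15 tested guanylate-binding proteins and immunity-related GTPases, which interferon gamma induces and which attack vacuoles of microbes, fell (median -1.45), and the count was 15 without tumour replicate 4 as well. Gbp7 stood at 4.65, 4.79, 8.74, 15.1 and 10.7 CPM in macro-mets, against 81.6, 70.1, 65.2, 15.6 and 57.0 CPM in tumours (-2.72 ± 0.52, adjusted p = 0.000189). Gbp9 fell by 2.21 ± 0.46. Tumour replicate 4 had the lowest Gbp7 and Gbp9 of the tumours, at 15.6 and 35.2 CPM, and without it their changes were -2.96 and -2.42. Members of these families are near-identical copies and can share reads, so values of single members are uncertain.

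Of 32 antiviral interferon-stimulated genes, 22 fell and none rose (median -0.70). Oas1a, a sensor of double-stranded RNA, stood at 29.4, 31.2, 36.2, 32.8 and 31.5 CPM in macro-mets, against 64.4, 85.3, 52.2, 53.3 and 61.5 CPM in tumours (-0.98 ± 0.17, adjusted p = 5.64e-05). Ifi44, the oligoadenylate synthetase-like gene Oasl2 and Bst2, tetherin, fell by 2.36 ± 0.50, 1.57 ± 0.28 and 0.95 ± 0.19. On log2(TPM + 1), 13 of the 32 were lower, and without tumour replicate 2 the count was 14. Among signalling factors, the kinase gene Jak2 and the factor gene Irf9 fell by 1.60 ± 0.35 and 0.60 ± 0.15. Of 19 such factors, 7 were lower and 2 higher (47.4% called, against 37.8% of all genes tested). With GC and length offsets 11 were lower and 2 higher. Of the feedback inhibitors, Socs1 fell by 0.82 ± 0.22 and Socs3 rose by 0.96 ± 0.23. Of the antiviral genes 0 and of the guanylate-binding and GTPase genes 1 differed between hosts, and their medians were -0.62 and -1.38 in NSG hosts.

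Promoters of Oas1a, Bst2 and Gbp7 are shown because the interferon-stimulated response element is known to drive such genes. Capitals mark the motif GAAANNGAAA on either strand, where overlapping matches were allowed. They are at chr5:120907476-120907775, minus strand, chr8:71537423-71537722, minus strand, and chr3:142530086-142530385, plus strand (RefSeq, GRCm38.p6).
Oas1a: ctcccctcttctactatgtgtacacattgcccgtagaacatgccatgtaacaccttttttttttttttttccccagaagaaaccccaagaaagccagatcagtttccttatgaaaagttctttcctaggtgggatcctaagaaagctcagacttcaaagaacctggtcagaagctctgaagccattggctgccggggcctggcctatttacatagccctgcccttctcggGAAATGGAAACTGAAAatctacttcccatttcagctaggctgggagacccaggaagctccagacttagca
Bst2: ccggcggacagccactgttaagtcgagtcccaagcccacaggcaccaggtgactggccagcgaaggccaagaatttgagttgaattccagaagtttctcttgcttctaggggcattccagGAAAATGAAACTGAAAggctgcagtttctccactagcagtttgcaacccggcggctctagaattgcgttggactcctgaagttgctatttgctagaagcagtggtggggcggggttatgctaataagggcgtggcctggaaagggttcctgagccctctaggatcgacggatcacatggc
Gbp7: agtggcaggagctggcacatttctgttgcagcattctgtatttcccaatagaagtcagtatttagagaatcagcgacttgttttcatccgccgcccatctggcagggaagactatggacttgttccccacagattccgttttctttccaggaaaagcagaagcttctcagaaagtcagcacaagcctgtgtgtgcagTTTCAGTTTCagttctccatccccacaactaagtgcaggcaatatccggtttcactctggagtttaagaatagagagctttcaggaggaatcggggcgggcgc
The motif was present in all 10 guanylate-binding and GTPase genes with a promoter on hand and in 12 of 24 antiviral genes (50%), against 3.82% of tested genes. Oas1a and Bst2 each hold 2 overlapping matches, whereas the promoters of Ifi44 and Oasl2, which also fell, hold none.

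Antigen presentation separated by class. Of 10 MHC class II genes tested, which present peptides to CD4 T cells, 8 fell and none rose (median -1.25), and without macro-met replicate 1 the count was 5. H2-Ab1 stood at 176, 332, 291, 416 and 473 CPM in macro-mets, against 1302, 1124, 1152, 634 and 1115 CPM in tumours (-1.66 ± 0.48, adjusted p = 0.0079). The chaperone gene Cd74, the peptide-exchange gene H2-DMa and the class II transactivator gene Ciita fell by 1.05 ± 0.31, 1.17 ± 0.29 and 1.31 ± 0.37. H2-Eb1 fell by 1.50 ± 0.39. In NSG hosts the list's median was 0.36, and the difference between hosts was called for Cd74 (difference -1.75 ± 0.44, adjusted p = 0.0187) and H2-DMa (difference -1.50 ± 0.41, adjusted p = 0.03). Of 17 MHC class I genes, 1 was lower and none higher, and with GC and length offsets 7 were lower and 1 higher. H2-K1 stood at 2639 to 3361 CPM in macro-mets and 2348 to 3341 CPM in tumours and was not called (0.054 ± 0.12, adjusted p = 0.756), and the member that fell was B2m (-0.35 ± 0.12, adjusted p = 0.0259), whose change with GC and length offsets was 0.36 (adjusted p = 0.00434), the opposite direction. B2m was not called within day 21 or without tumour replicate 5 or macro-met replicate 5.

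Of 22 immune checkpoint and NK ligand genes, 5 rose and 4 fell (40.9% called, against 37.8% of all genes tested). Within day 21 the counts were 2 and 3. Cd24a, a ligand of the inhibitory receptor Siglec-G, stood at 202, 221, 172, 211 and 178 CPM in macro-mets, against 393, 512, 392, 414 and 571 CPM in tumours (-1.22 ± 0.13, adjusted p = 6.43e-08). Cd274, PD-L1, fell by 1.10 ± 0.31. Within day 21 its change was of similar size (-1.11) but was not called. With all libraries the change of Cd274 differed from that in NSG (difference -1.48 ± 0.44, adjusted p = 0.0475). Of 19 chemokines, 5 rose and 2 fell (36.8% called, against 37.8% of all genes tested), and 2 and 2 with only the 10 libraries. Cxcl16, the chemokine that binds CXCR6 on T cells, stood at 14.2, 19.8, 15.4, 19.8 and 20.8 CPM in macro-mets, against 47.9, 58.5, 44.5, 40.8 and 58.4 CPM in tumours (-1.48 ± 0.17, adjusted p = 2.46e-07). Cd276 and Ccl2 went the other way, at means of 119.5 and 36.29 TPM in macro-mets and 64.65 and 10.45 TPM in tumours.

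Of 21 death receptor genes, 5 rose and 6 fell (52.4% called, against 37.8% of all genes tested). The counts were 3 and 3 without tumour replicate 5 and 2 and 4 without macro-met replicate 2. Tnfsf10, TRAIL, stood at 4.98, 7.36, 9.40, 12.4 and 9.31 CPM in macro-mets, against 39.2, 41.9, 20.4, 15.9 and 46.1 CPM in tumours (-1.91 ± 0.35, adjusted p = 0.00012), and its change differed between hosts (difference -1.99 ± 0.50, adjusted p = 0.0159). Fas, the receptor of Fas ligand, stood at 10.1, 9.71, 11.1, 13.8 and 13.6 CPM in macro-mets, against 15.5, 13.3, 17.1, 18.4 and 26.1 CPM in tumours (-0.63 ± 0.22, adjusted p = 0.0248), with groups that overlap. Its change was -0.39 within day 21 and -0.30 with GC and length offsets, and in neither was it called, nor without tumour replicate 5, macro-met replicate 1 or macro-met replicate 2, nor on TPM. Bid, which links death receptors to mitochondria, rose by 0.77 ± 0.11. The survival genes Bcl2l1 and Mcl1 rose by 0.72 ± 0.14 and 0.48 ± 0.11. Over 16 BCL2 family genes, 5 rose and 1 fell (median 0.06, 37.5% called, against 37.8% of all genes tested). With GC and length offsets 3 rose and 3 fell.

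Glucocorticoid-induced genes were mostly higher. Of 27, 16 rose and 1 fell (median 0.59). Tsc22d3, the glucocorticoid-induced leucine zipper, stood at 272, 396, 209, 181 and 217 CPM in macro-mets, against 54.8, 65.3, 43.9, 43.9 and 62.8 CPM in tumours (2.23 ± 0.22, adjusted p = 1.59e-08). Fkbp5, the co-chaperone of the receptor, stood at 315, 325, 311, 253 and 286 CPM in macro-mets, against 157, 99.0, 163, 108 and 120.1 CPM in tumours (1.20 ± 0.12, adjusted p = 2.44e-08). Sesn1, a sestrin, the period gene Per1 and the kinase gene Map3k6 rose by 1.63 ± 0.16, 1.55 ± 0.23 and 1.13 ± 0.18, and Klf9 was the member that fell (-0.93 ± 0.30, adjusted p = 0.0144). Without tumour replicate 5 Klf9 changed by -0.65 (adjusted p = 0.0821) and the list held 13 rises and 0 falls, and Klf9 was not called within day 21 (-0.99). The list held 10 rises and 2 falls with GC and length offsets. Hsd11b1, which regenerates active glucocorticoid from its inert form, stood at 15.3, 20.4, 22.7, 17.9 and 17.2 CPM in macro-mets, against 1.87, 2.13, 4.57, 1.01 and 6.25 CPM in tumours (2.56 ± 0.41, adjusted p = 2.13e-05). H6pd, which supplies it with NADPH, rose by 0.82 ± 0.15. Nr3c1, the receptor gene, was not called (-0.52 ± 0.21, adjusted p = 0.0535). It was called lower under 5 of 18 alternatives, among them without tumour replicate 4 (-0.58, adjusted p = 0.0484). With GC and length offsets it changed by -0.10 and was not called. Hsp90aa1, a gene of the HSP90 chaperone that holds the receptor ready for hormone, fell by 1.77 ± 0.38. Its mean was 138 TPM in macro-mets and 445 TPM in tumours. Hsp90ab1, the other HSP90 gene, was more abundant and did not go the same way, at means of 5569 TPM in macro-mets and 4526 TPM in tumours. Tsc22d3, Fkbp5 and Hsd11b1 rose in NSG hosts as well (2.75 ± 0.22, 1.19 ± 0.12 and 2.98 ± 0.41). Of the 27 glucocorticoid-induced genes, 9 had a change that differed between hosts, against 5.23% of all genes tested. The median of the list in NSG hosts was 0.65.

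Most antioxidant genes were higher. Of 31 antioxidant genes, 19 rose and 3 fell (median 0.63), and the rises numbered 19 without tumour replicate 4 and with the offsets. Hmox1, the haem oxygenase, stood at 91.3, 107, 96.0, 125 and 111 CPM in macro-mets, against 28.4, 21.3, 28.8, 22.5 and 17.1 CPM in tumours (2.17 ± 0.21, adjusted p = 1.60e-08). The rate-limiting enzyme gene of glutathione synthesis, Gclc, the glutathione transferase gene Gstm2 and the aldehyde dehydrogenase gene Aldh3a1 rose by 1.30 ± 0.13, 1.20 ± 0.12 and 2.40 ± 0.22. The 3 that fell were Gpx4, which reduces lipid peroxides (-0.40 ± 0.11, adjusted p = 0.00554), Slc7a11, the cystine transporter (adjusted p = 0.0211), and Nfe2l2, the NRF2 factor of this programme (-0.37 ± 0.13, adjusted p = 0.0207). Within day 21 and on log2(TPM + 1) the list held 1 fall. Gpx4 lost its call within day 21 (-0.33), Slc7a11 with the offsets (-0.18), on TPM and without tumour replicate 2, tumour replicate 5 or macro-met replicate 2, and Nfe2l2 within day 21, on TPM and without tumour replicate 4 (-0.31) or macro-met replicate 1. In iron handling, the ferritin gene Fth1 rose by 0.57 ± 0.13 and the transferrin receptor gene Tfrc fell by 0.98 ± 0.32, and neither was called with the offsets (0.31 and -0.40), nor Tfrc without macro-met replicate 1 or 2. Summed haemoglobin and platelet markers were higher in macro-mets, as given above, and their part in Hmox1 was not tested.

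Matrix genes moved in both directions. Of 41 collagens and matrix proteins, 18 rose and 6 fell (median 0.38, 58.5% called, against 37.8% of all genes tested). The falls numbered 11 under GC and length offsets and 3 within day 21. Fbln1, a fibulin of elastic and basement membranes, stood at 27.3, 30.2, 29.3, 35.1 and 24.5 CPM in macro-mets, against 6.19, 3.00, 5.52, 4.50 and 3.72 CPM in tumours (2.67 ± 0.20, adjusted p = 1.07e-10). Fbln1 is also a fibroblast marker, and of the 16 markers of that list 6 were called higher and 6 lower. Inmt had a mean of 21.4 CPM in macro-mets and 3.66 CPM in tumours, and Pi16 of 12.3 and 4.97 CPM. Lum and Dpt went the other way, at means of 0.253 and 0.702 CPM in macro-mets and 3.83 and 1.83 CPM in tumours. The most abundant markers, Npnt, Gsn and Pdgfra, had means of 551, 346 and 234 CPM in macro-mets and 404, 338 and 149 CPM in tumours. The fibroblast sums were 1248.8 to 1480.8 CPM in macro-mets and, outside tumour replicate 4, 1071.6 to 1123.7 CPM in tumours, and their part in the matrix rises was not tested. Col5a1, Col6a1 and the laminin gene Lamc1 rose by 1.46 ± 0.23, 0.86 ± 0.15 and 1.14 ± 0.16, and Mgp, the matrix Gla protein, by 1.01 ± 0.13. Lamb3 and Lama3, chains of laminin 332 in epithelial basement membrane, fell by 1.10 ± 0.24 and 0.86 ± 0.21. The fibrillar collagen genes Col3a1 and Col1a1 fell (-2.40 ± 0.55, adjusted p = 0.00132, and -1.23 ± 0.42, adjusted p = 0.024), but tumour replicate 4 held 128 and 392 CPM of them, against 9.60 to 51.8 and 46.4 to 84.6 CPM in other tumours. Without that library Col3a1 changed by -1.71 and Col1a1 by -0.26, which was not called. Within day 21 neither was called (Col3a1 -0.58, Col1a1 -0.23). In that library the fibroblast markers summed to 1634 CPM, and their part in this was not tested.

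Of 25 mesenchymal genes, 8 rose and 4 fell (48% called, against 37.8% of all genes tested). Rises and falls numbered 10 and 2 without tumour replicate 4, 5 and 4 without tumour replicate 5 and 8 and 2 without macro-met replicate 1. They numbered 6 and 2 without macro-met replicate 2, 8 and 1 with GC and length offsets and 9 and 0 within day 21. Tgfbr2, a TGF-beta receptor, stood at 229, 238, 273, 229 and 252 CPM in macro-mets, against 112, 81.3, 116, 108 and 65.4 CPM in tumours (1.34 ± 0.13, adjusted p = 1.50e-08). Snai1, a repressor of E-cadherin, Sparc, a matricellular protein, and Smad7, a feedback inhibitor of TGF-beta receptors, rose by 1.36 ± 0.17, 1.15 ± 0.13 and 0.88 ± 0.13. Smad7 changed by -0.66 ± 0.13 in NSG, and the hosts differed (difference 1.54 ± 0.19, adjusted p = 2.30e-05). Among proteases and inhibitors, 5 of 29 were higher and 7 lower (41.4% called, against 37.8% of all genes tested), and 5 and 4 within day 21. The membrane and secreted metalloproteinase genes Mmp15 and Mmp28 and the inhibitor gene Timp2 rose by 1.25 ± 0.24, 1.64 ± 0.20 and 0.73 ± 0.12. Mmp9 and Mmp13 fell by 1.04 ± 0.24 and 1.53 ± 0.37. The falls of Mmp9 and Mmp13 were larger in NSG (-2.87 ± 0.26 and -3.82 ± 0.41), and the differences were called (difference 1.83 ± 0.34, adjusted p = 0.00161, and difference 2.29 ± 0.53, adjusted p = 0.00881).

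Of 38 epithelial junction genes, 19 fell and 1 rose (median -0.67, 52.6% called, against 37.8% of all genes tested). Dsp, desmoplakin, which ties keratin to desmosomes, stood at 38.4, 29.4, 33.6, 62.8 and 40.4 CPM in macro-mets, against 118, 201, 102, 276 and 161 CPM in tumours (-2.07 ± 0.31, adjusted p = 1.21e-05). The desmosomal cadherin genes Dsg2 and Dsc2 fell by 1.74 ± 0.25 and 2.62 ± 0.47. Rab25, an epithelial GTPase of recycling endosomes, fell by 1.95 ± 0.28. The cell adhesion gene Alcam and the receptor gene Erbb3 fell by 1.95 ± 0.29 and 1.65 ± 0.27. With GC and length offsets 31 of the 38 were lower, and the 1 rise was not called there or without tumour replicate 1, 3 or 4 or macro-met replicate 1 or 2.

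Krt18, a keratin of simple epithelia, was not called, at 1420 to 2467 CPM in macro-mets and 2041 to 2410.1 CPM in tumours (-0.17 ± 0.12, adjusted p = 0.254), but was called lower with GC and length offsets (-0.42, adjusted p = 0.00023). Krt7 and Krt14 fell by 0.71 ± 0.14 and 1.19 ± 0.28. Krt6a, Krt10 and Krt16, which mark stressed or stratified skin epithelium, were called lower (-3.09 ± 0.99, -2.80 ± 0.79 and -2.39 ± 0.68), but in tumour replicate 4 they stood at 39.8, 206 and 65.5 CPM, against highest values of 2.98, 21.2 and 6.21 CPM in the other tumours. Without that library they changed by -0.84, -1.08 and -0.77, and none was called. Over the list of 15, 2 rose and 6 fell with all libraries (53.3% called, against 37.8% of all genes tested). Without tumour replicate 4, 2 rose and 3 fell. The rises numbered 1 without tumour replicate 1 or 5 or macro-met replicate 1, 2 or 4.

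Of 22 inflammatory cytokines and colony-stimulating factors, 7 rose and 5 fell (median 0.17, 54.55% called, against 37.8% of all genes tested). Without tumour replicate 4, 7 rose and 3 fell. Among growth factors, Vegfc, a growth factor of lymphatic vessels, stood at 21.4, 25.7, 26.4, 26.3 and 25.8 CPM in macro-mets, against 10.4, 10.3, 7.67, 7.96 and 7.36 CPM in tumours (1.52 ± 0.17, adjusted p = 1.16e-07). Angpt2, a Tie2 ligand, and Vegfa rose by 1.81 ± 0.26 and 1.03 ± 0.16. Csf1 and Il34, both ligands of the macrophage receptor CSF1R, rose by 1.15 ± 0.16 and 1.27 ± 0.20, and Il33, an alarmin, by 1.33 ± 0.29. Kitl, the ligand of KIT, stood at 16.0, 11.7, 19.0, 33.0 and 27.5 CPM in macro-mets, against 112, 216, 109, 51.2 and 205 CPM in tumours (-2.69 ± 0.40, adjusted p = 1.03e-05), and Tslp, an epithelial cytokine, fell by 1.38 ± 0.20. Csf3, the granulocyte factor, rose (0.91 ± 0.26, adjusted p = 0.00748) with groups that overlap, changed by 0.45 within day 21 with no call, and moved the other way in NSG (-1.85 ± 0.27, difference 2.77 ± 0.37, adjusted p = 8.46e-05). Of 34 acute phase, complement and coagulation genes, 11 rose and 3 fell (41.2% called, against 37.8% of all genes tested), with 6 rises within day 21. The protease inhibitor gene Serpine2, the urokinase receptor gene Plaur and the serum amyloid gene Saa3 rose by 1.70 ± 0.23, 1.09 ± 0.15 and 2.51 ± 0.56, and complement C3 fell by 1.06 ± 0.31, a call that was lost on log2(TPM + 1) (-0.77, adjusted p = 0.0623).

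In metabolism, 12 of 23 cholesterol genes rose and none fell (median 0.45, 52.2% called, against 37.8% of all genes tested). With GC and length offsets 14 rose and 2 fell. Sqle, squalene epoxidase, and Insig1, which senses sterols, rose by 1.05 ± 0.16 and 1.04 ± 0.18. Cpt1a, which brings fatty acids into mitochondria, and the desaturase gene Fads1 rose by 0.98 ± 0.14 and 0.99 ± 0.13. Of 29 genes of the integrated stress and amino acid response, 13 rose and 5 fell (62.1% called, against 37.8% of all genes tested). The rises numbered 7 with GC and length offsets and 6 within day 21. The serine synthesis gene Psat1 and the transporter genes Slc7a1 and Slc7a5 rose by 1.41 ± 0.15, 1.34 ± 0.16 and 0.85 ± 0.13. Of 19 glycolysis enzymes, 6 rose (31.6% called, against 37.8% of all genes tested), among them Hk2 and Pgam1 (0.76 ± 0.15 and 0.66 ± 0.15). Gapdh was not called (0.19 ± 0.15). With the offsets 4 of the 19 rose and 3 fell, the median was -0.07 with the offsets and 0.27 without them, and within day 21 none was called. Without tumour replicate 3, 10 of the 19 rose.

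Of 13 mitochondrial subunit genes, 9 fell (median -1.42). The complex I gene mt-Nd2 stood at 338, 285, 371, 328 and 348 CPM in macro-mets, against 1131, 1407, 1292, 1181 and 1567 CPM in tumours (-1.98 ± 0.24, adjusted p = 4.92e-07). The genes mt-Nd4 and mt-Co1 fell by 1.93 ± 0.26 and 1.24 ± 0.23. Exons of mt-Nd2 hold 35.7% GC, and with GC and length offsets it changed by -0.78 and 4 of the 13 were called, against 5 within day 21. Of 46 cytosolic ribosomal proteins, 21 fell and none rose (median -0.26, 45.65% called, against 37.8% of all genes tested), among them Rps15 (-0.62 ± 0.12). Within day 21 the count was 1, and with GC and length offsets 37 fell and 1 rose.

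The clock genes Per2 and Bhlhe41 rose by 1.37 ± 0.18 and 0.96 ± 0.16, and Clock itself fell, at 2.44, 1.83, 4.23, 5.81 and 3.49 CPM in macro-mets, against 19.0, 17.9, 22.1, 17.0 and 20.1 CPM in tumours (-2.43 ± 0.40, adjusted p = 3.59e-05). Among immediate early genes, Jun rose by 0.83 ± 0.18 and Dusp1, which also answers glucocorticoid, by 1.20 ± 0.29. Fosb and Nr4a2 were called lower (-0.98 ± 0.37, adjusted p = 0.0354, and -1.18 ± 0.36, adjusted p = 0.0123), but tumours of day 21 held 349.7 and 257 CPM of Fosb and those of day 22 held 794 to 1257 CPM. Within day 21, Fosb and Nr4a2 changed by 0.29 and 0.33, in the other direction and with no call. The heat shock gene Hsph1 fell by 1.58 ± 0.23. In retinoid metabolism, Stra6, the receptor of retinol-binding protein, and Cyp26b1, which degrades retinoic acid, rose by 1.84 ± 0.34 and 2.00 ± 0.32. Stra6 changed by 0.083 ± 0.33 in NSG, and the hosts differed (difference 1.76 ± 0.47, adjusted p = 0.0253).

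**Figure D5:**
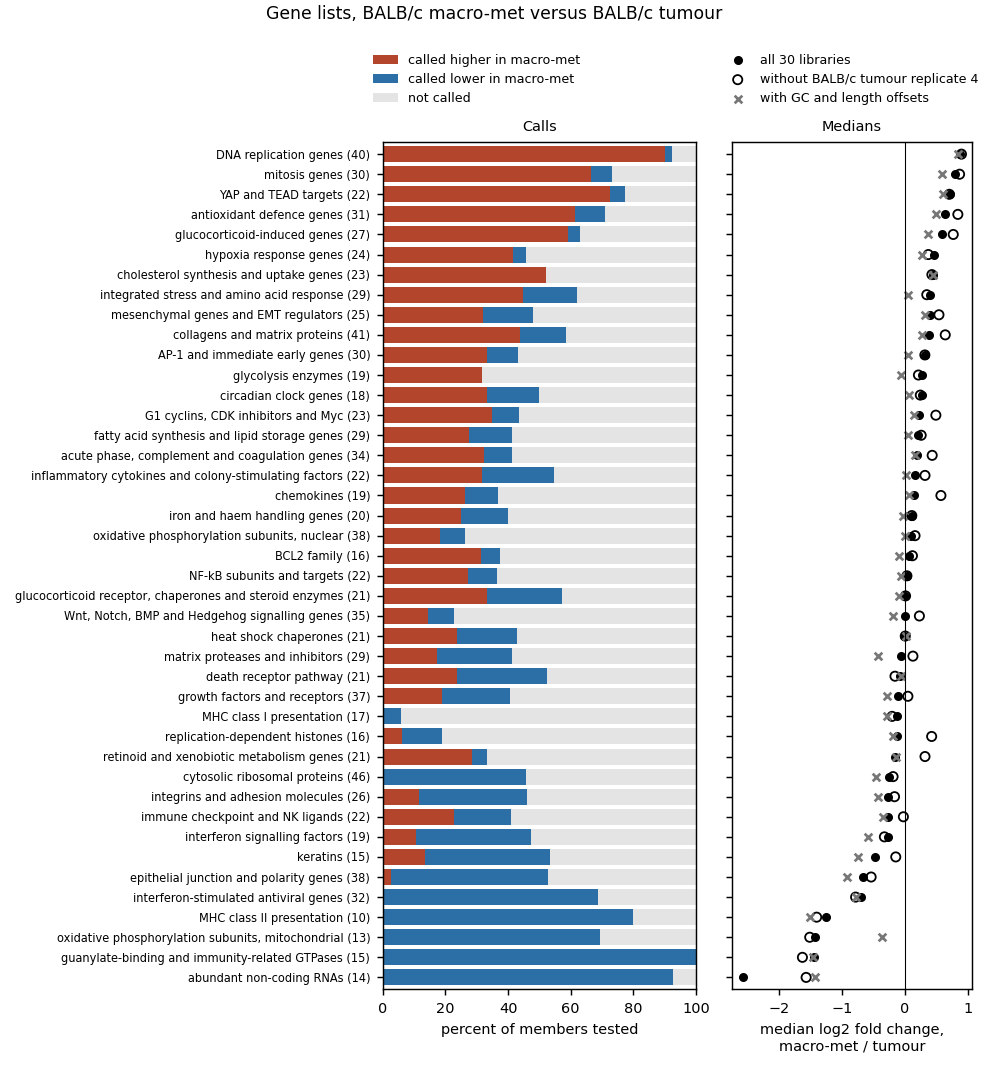
Left, the percent of tested members called higher (red), called lower (blue) or not called (grey) in BALB/c macro-mets against BALB/c tumours, with the number tested after each name. Right, the median log2 fold change of each list with all libraries, without tumour replicate 4 and with GC and length offsets. The replication, mitosis and YAP and TEAD lists lie at the top and the guanylate-binding list and non-coding RNAs at the bottom.

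On GRCm38, genes described above lie as follows: Sod3 on chromosome 5 from 52363791 to 52371418, Selenbp1 on chromosome 3 from 94933056 to 94944758, Lbp on chromosome 2 from 158306493 to 158332852, Tln2 on chromosome 9 from 67217087 to 67559703, Ctgf on chromosome 10 from 24595442 to 24598683, Stag2 on chromosome X from 42149317 to 42277185, Thoc2 on chromosome X from 41794991 to 41920674 and Malat1 on chromosome 19 from 5795690 to 5802672 (positions from GENCODE M21).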

How the data were processed

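RNA of sorted 4T1-tdTomato cells was sequenced in bulk. The authors trimmed reads with Trimmomatic 0.36 and aligned them with STAR 2.5.2b to GRCm38 (mm10), per the submitters' processing notes. The counting tool, its annotation, its use of strand and the gene lengths behind TPM are not given in the sources used here, so reads of overlapping or antisense genes cannot be told apart. The deposited raw counts per gene were the main input, and the deposited TPM values, normalized by the authors, served as an alternative. Of 49315 genes, 17774 passed edgeR's filter on low counts and held 99.97% of counts. All 30 libraries entered a single quasi-likelihood fit (edgeR 4.0.16 in R 4.3.3, TMM scaling, 1 mean per group, robust), with contrasts of macro-met minus tumour in BALB/c and of that difference in BALB/c minus NSG, two-sided, with Benjamini-Hochberg adjustment and a threshold of 0.05. The scripts were tested on simulated data. Alternatives used RLE scaling, no filter, the 10 libraries alone, GC and length offsets, day 21 alone, each library left out, limma 3.58.1 on log2(TPM + 1) or log2(TPM + 0.1), and DESeq2 1.42.0. Motifs were searched in RefSeq promoters and positions were taken from GENCODE M21. Members and lists were chosen with earlier results of these data known. Named genes were taken by rule: large changes or small p among genes whose groups did not overlap and whose log2 CPM averaged 3 or more, and called members of each list by p, with a few members that were not called. The genes printed were chosen among these after their values were seen.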

Additional observations from a re-analysis of the deposited data

Results flagged for a closer look

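Single libraries lay far from the other 4 of their group in 25 of 352 groups of 5 libraries tested, and chance alone flags about 1 in 20 groups. BALB/c tumour replicate 4 accounted for 13 of the 25. In that library Rn7sk stood at 4898 CPM, Krt10 at 206 CPM, Krt6a at 39.8 CPM, Krt16 at 65.5 CPM, Col1a1 at 392 CPM, H2-Ab1 at 634 CPM, Tfrc at 32.5 CPM, Gbp9 at 35.2 CPM, Gclc at 14.1 CPM, Washc4 at 13.2 CPM and Cyp26b1 at 11.2 CPM, and its fibroblast and skeletal muscle markers summed to 1634 and 1069 CPM. In the macro-mets, replicate 1 stood apart for Gas5 (256 CPM), Mcm6 (446 CPM), Bst2 (114 CPM), Vegfc (21.4 CPM) and mt-Co1 (6372.5 CPM), replicate 2 for Dusp1 (1457 CPM), replicate 3 for Sqle (123 CPM) and replicate 4 for Ncaph (53.0 CPM) and Hsph1 (47.3 CPM). Among other tumours, replicate 2 stood apart for Amotl2 (30.2 CPM), replicate 3 for Aldh3a1 (6.42 CPM) and replicate 5 for Per2 (11.9 CPM).

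The change from tumour to macro-met differed between hosts in 44 genes chosen for the text, by the test of the difference in the edgeR fit (log2 fold change in BALB/c minus that in NSG). Growth genes had positive differences: Fam83d 2.40, Aurkb 1.91, Top2a 1.78, Ncaph 1.67, Espl1 1.58, Incenp 1.45, Aurka 1.45, Rrm2 1.37, Cdk1 1.28, Myc 1.22, Ccne1 1.22, Mcm10 1.17, Tk1 1.02, Mcm6 0.87 and Rpa1 0.71. So did genes of adhesion, matrix and signalling: Cyr61 2.29, Mmp13 2.29, Mmp9 1.83, Tln2 1.63, Smad7 1.54, Mmp15 1.48, Dusp1 1.46 and Camk1d 1.30. Secreted factors and their receptors followed, with Csf3 at 2.77, Vegfa at 1.26, Plaur at 1.11 and Csf1 at 0.83. In metabolism the differences were Stra6 1.76, Aldh3a1 1.67, Psat1 1.05, Fads1 0.84, Sqle 0.81, Hk2 0.80 and Gclc 0.66. Negative differences were those of Col3a1 (-2.77), Tnfsf10 (-1.99), Cd74 (-1.75), H2-DMa (-1.50), Cd274 (-1.48), Klf9 (-1.40), Neat1 (-1.35), Bhlhe41 (-0.93), Bcl2l1 (-0.72) and Gas5 (-0.71). Host and age of the tumour cannot be told apart in them.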

How the results depend on the processing

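Of 161 genes chosen for the text, 155 were called and 132 of these were called under all 18 alternatives, while 148 were called without tumour replicate 4, 150 with GC and length offsets, 138 on day 21 alone and 146 on log2(TPM + 1). Counts on day 21 alone were 1786 higher and 1704 lower, and under the other alternatives they stayed within 1.5 times those reported, with 3025 to 3498 higher and 2584 to 3245 lower when a library was left out. Called genes that changed direction were B2m with the offsets (0.36), Fosb on day 21 (0.29) and Nr4a2 on day 21 (0.33). Of genes not called, Gapdh was -0.18 with the offsets, Top2a was -0.31 on day 21 and -0.15 to 0.31 with a library left out (negative without macro-met replicate 4 or tumour replicate 5), and H2-K1 was -0.26 with the offsets, -0.064 on day 21, -0.010 with RLE and with DESeq2 and -0.0091 to 0.12 with a library left out (negative without tumour replicate 4). The cause was not tested. No paired analysis was possible because the replicates were numbered in accession order and the labels pair no macro-met with a tumour.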

Other observations

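Of 24 hypoxia response genes, 10 were higher and 1 lower in BALB/c macro-mets (45.8% called, against 37.8% of all genes tested). Within day 21 the counts were 2 and 1. Of 26 integrins and adhesion molecules, 3 were higher and 9 lower (46% called, against 37.8% of all genes tested). The counts were 5 and 8 without tumour replicate 1, 5 and 9 without tumour replicate 3, 5 and 7 on log2(TPM + 1) and 1 and 6 within day 21.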
